A study of Mus musculus with 24 samples.

Results

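Frontal cortex of mice carrying a human TDP-43 transgene, a heterozygous loss of the progranulin gene, both or neither was profiled by RNA sequencing, and the mRNAs described here are those of 54 cytosolic ribosomal proteins. The 54 genes were chosen by name, as proteins of the large subunit (32 genes) and the small subunit (22 genes), from 52352 genes with at least 1 matched transcript. Earlier results of these data were known when they were chosen. A separate list below holds 26 other cytosolic ribosomal protein genes. All 54 were found, all are annotated as protein coding, and all passed the filter on low counts that left 18239 genes for testing. Each of the 4 groups held 6 mice, 3 male and 3 female. The groups were Grn+/- hTDP+ (1 Grn allele and the transgene), Grn+/+ hTDP+ (transgene only), Grn+/- hTDP- (1 Grn allele only) and Grn+/+ hTDP- (neither). All mice came from crosses of Grn+/- with hTDP transgenic animals, which gave littermates of the 4 genotypes, and were perfused with saline. Ages ran from 8.19 to 10.79 months and differed between groups: the hTDP+ mice were all 9.44 or 10.07 months old, whereas 4 of the 6 Grn+/- hTDP- mice had ages found in no other group. The promoter that drives the transgene is not given in the sources used here. The tissue is a bulk mixture of cell types, so fewer cells of a type and less RNA per cell cannot be told apart.

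Cytosolic ribosomes consist of a large and a small subunit, each built from ribosomal RNA and a fixed set of proteins that are needed in matched amounts. The mRNAs of these proteins share a terminal oligopyrimidine (TOP) tract at the 5′ end, through which mTORC1 and the RNA-binding protein LARP1 set their translation. In the brain these mRNAs are found in all cell types, and in neurons some of them are also found in axons and dendrites.

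The start sites of member genes are shown first, because the TOP tract begins there. Of the 54 genes, 44 had a promoter entry in RefSeq, with 52 entries between them (build GRCm38.p6). The pyrimidine words CTTTT, then CTTTC, then CTTCC and then CTCTT, which may overlap one another, were searched on both strands from 40 bases before to 40 bases after each start. On the gene strand, 38 of 52 member promoters (73.1%) held at least 1 of the words, against 35.3% of all 32851 promoters. On the opposite strand the share was 30.8% of member promoters, against 37.9% of all promoters. A match is a description of these letters and not a test of any factor, and the absence of a match refers to this window only. Each line below runs 5′ to 3′ on the gene strand from 15 bases before the start to 15 bases after it, with letters that belong to 1 of the 4 words in capitals. Each gene shown is named in at least 1 comparison, apart from Rps6, whose protein is a target of S6 kinase, and not every named gene is shown.
Rpl4, chr9:64173372-64173401, plus strand: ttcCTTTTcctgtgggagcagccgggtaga
Rpl14, chr9:120571502-120571531, plus strand: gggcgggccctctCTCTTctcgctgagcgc
Rpl27, chr11:101442230-101442259, plus strand: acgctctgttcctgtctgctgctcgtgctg
Rpl35, chr2:39005117-39005146, minus strand: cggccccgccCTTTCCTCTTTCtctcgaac
Rps6, chr4:86857353-86857382, minus strand: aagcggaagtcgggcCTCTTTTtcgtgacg
Rps12, chr10:23787195-23787224, minus strand: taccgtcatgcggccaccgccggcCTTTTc
Rpl13a, chr7:45128731-45128760, minus strand: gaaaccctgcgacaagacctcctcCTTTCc
Rplp2, chr7:141447636-141447665, plus strand: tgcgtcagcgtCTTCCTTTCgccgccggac
Rps21, first start, chr2:180257364-180257393, plus strand: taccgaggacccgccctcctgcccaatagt
Rps21, second start, chr2:180257434-180257463, plus strand: ggacaagtgagcaggtaggcctcggtgcgg
Rpl35 held an almost unbroken run of these words just before and across its RefSeq start. Neither Rps21 start nor the Rpl27 start held one in the printed 30 bases. In the gene annotation used for the counts, Rpl27 begins at chr11:101442298, beyond its printed window. Some other printed windows, such as those of Rps12 and Rplp2, do not reach the outermost start of the gene in that annotation. The lack of a word in a window therefore does not show that a gene has no TOP tract.

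The libraries held 61445842 to 100859149 reads assigned to transcripts. The labels were checked first. Grn, which encodes progranulin, had a median of 27.2 CPM (counts scaled to library size) in Grn+/- hTDP+ mice, 48.3 CPM in Grn+/+ hTDP+ mice, 28.4 CPM in Grn+/- hTDP- mice and 53.4 CPM in Grn+/+ hTDP- mice. The human TARDBP transcript had 4328 to 8162 reads in the 12 hTDP+ libraries and 0 to 2 reads in the 12 hTDP- libraries. The library of Grn+/+ hTDP+ replicate 2 gave 40188 transcripts a value above 0, where every other library gave 65994 to 69846.

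Ribosomal protein mRNAs were abundant but unequal. Per length, mean levels over the 24 mice ran over a 15.3-fold range in TPM, which scales reads to transcript length and library size. The highest was Rplp1, an acidic protein of the ribosomal stalk that recruits translation GTPases, at 3021 ± 234 TPM (SD, n = 24), and its lowest mouse, 2735 TPM, lay above the highest mouse of the next gene, 2589 TPM. That gene was Rps21 at 1951 ± 293 TPM, followed by Rps15 at 1908 ± 129 TPM, Rpl41 at 1512 ± 144 TPM and Rpl38 at 1309 ± 113 TPM. The lowest level belonged to Rps20, at 198 ± 22.3 TPM. Above it stood Rpl22 at 238 ± 17.1 TPM, Rpl5 at 260.0 ± 12.1 TPM, Rpl35 at 267 ± 22.4 TPM and Rplp0 at 304 ± 16.4 TPM. Among these 5 lowest genes, neighbouring levels overlapped between mice. Stalk partners therefore differed in TPM: Rplp1 and Rplp2 bind the ribosome through Rplp0, and Rplp2 stood at 624 ± 38.6 TPM. In CPM, which is not scaled to length, Rplp1 averaged 324, Rplp0 160 and Rplp2 98.5. Rps21 (chr2:180257377-180258445), Rpl38, Rps28 and Rps29 have effective lengths of only 97.3, 75.2, 89.4 and 94.0 bases, so their TPM values rest on a small number of usable fragment positions. The 5 highest genes had effective lengths of 75.2 to 197 bases and the 5 lowest 495 to 1187 bases, so the order in TPM depends on the length divisor. In CPM, Rpl38 (54.5) lay below Rps20 (77.0).

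**Figure D1:**
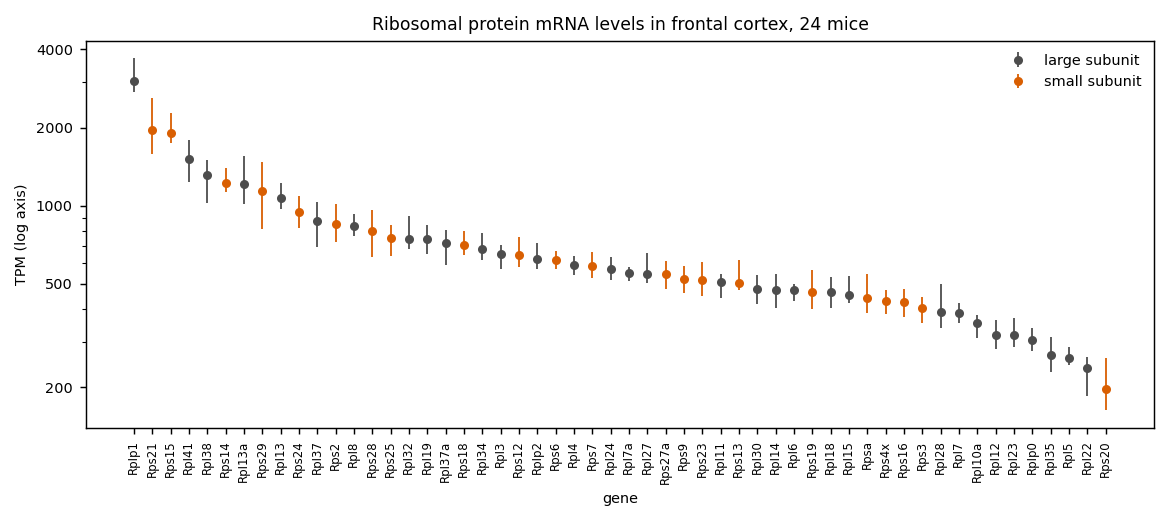
Mean TPM of each of the 54 genes over 24 mice (points) with the lowest and highest mouse (lines), on a log axis, ordered by mean. Rplp1 is highest at 3021 TPM and Rps20 lowest at 198 TPM, with genes of both subunits spread along the order.

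The 2 subunits were represented in nearly constant proportion. Large subunit genes averaged 698 ± 37.5 TPM per gene in Grn+/- hTDP+ mice, 699 ± 39.3 in Grn+/+ hTDP+ mice, 688 ± 22.9 in Grn+/- hTDP- mice and 659 ± 30.1 in Grn+/+ hTDP- mice (SD, n = 6 each). Small subunit genes averaged 779 ± 48.5, 769 ± 55.3, 757 ± 25.2 and 713 ± 32.0 TPM per gene in the same order of groups. The ratio of large to small, computed per mouse, was 0.896 ± 0.016 in Grn+/- hTDP+ mice, 0.910 ± 0.0192 in Grn+/+ hTDP+ mice, 0.908 ± 0.0094 in Grn+/- hTDP- mice and 0.924 ± 0.015 in Grn+/+ hTDP-. Over all 24 mice it lay between 0.873 and 0.940, and the ranges of the 4 groups overlapped. Together the 54 genes took 0.734% to 0.962% of the reads and 3.46% to 4.35% of TPM.

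The 54 mRNAs moved together from mouse to mouse. The first principal component of their log2 CPM over the 24 mice held 68.0% of their variance, with all 54 genes of the same sign. Within groups, after each group's mean was removed, it held 63.5%, again with all 54 of the same sign. The first component of all genes tested held 32.4%. Counts of members above 0 in the comparisons below therefore do not come from 54 separate pieces of evidence. The spread over mice was smallest for Rpl7a (SD 0.059 log2) and Rpl4 (0.060) and largest for Rps29 (0.27), Rps28 (0.23) and Rps21 (0.23).

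**Figure D2:**
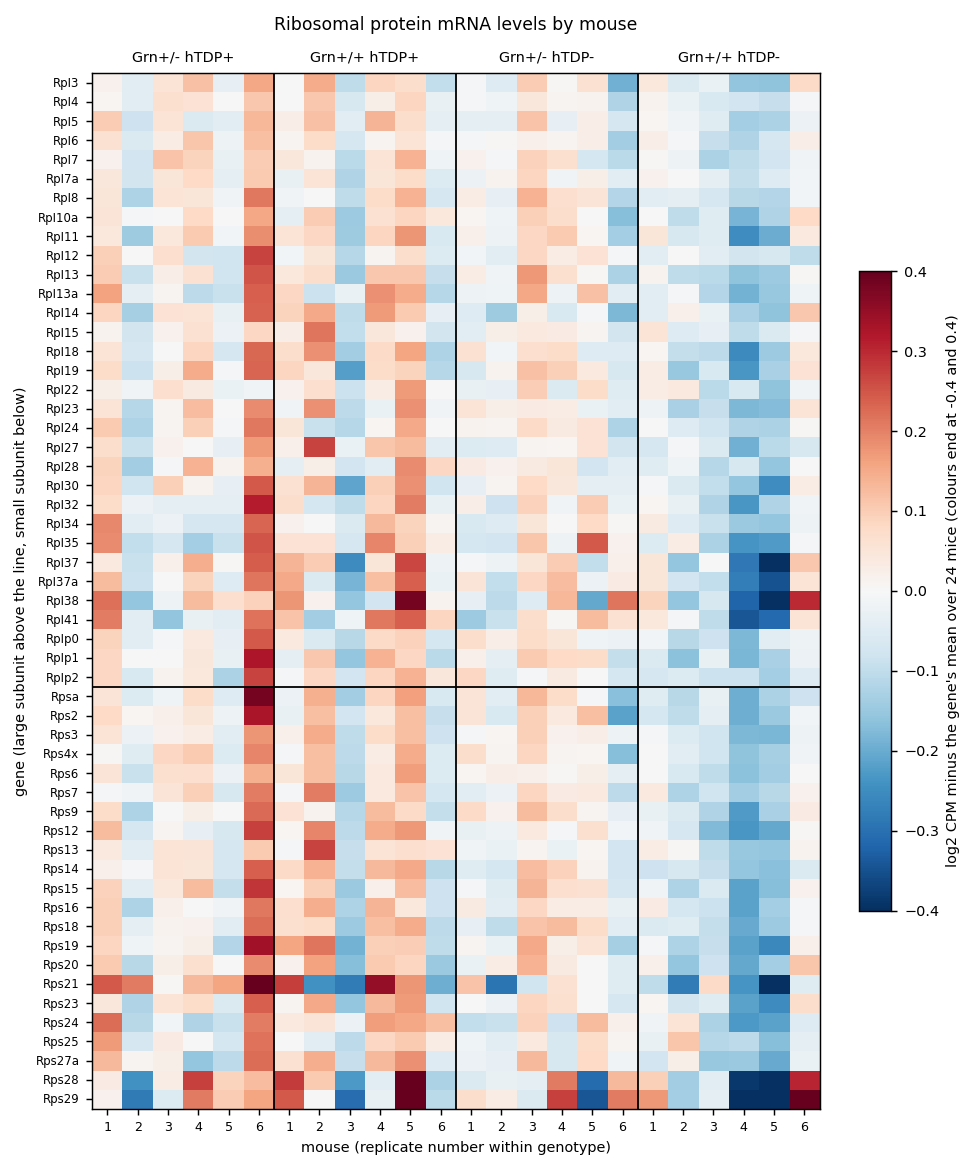
Log2 CPM of each gene (rows) in each mouse (columns), minus the gene's mean over 24 mice. Grn+/- hTDP+ replicate 6 is above the mean for 53 of 54 genes and Grn+/+ hTDP- replicates 4 and 5 are above it for 0 of 54. Within Grn+/+ hTDP+, replicate 5 is above it for 54 of 54 and replicate 3 for 0 of 54.

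To follow this shared movement, the centred log2 CPM values of the 54 genes were averaged in each mouse, which gives 0 for an average mouse. This mean ran from −0.069 through a median of 0.035 to 0.21 in Grn+/- hTDP+ mice, and from −0.12 through 0.064 to 0.15 in Grn+/+ hTDP+ mice. It ran from −0.053 through 0.0065 to 0.073 in Grn+/- hTDP- mice, and from −0.19 through −0.069 to 0.023 in Grn+/+ hTDP- mice. All groups overlapped. The highest mouse was Grn+/- hTDP+ replicate 6, a female, and the lowest were Grn+/+ hTDP- replicates 4 and 5, both female and both 9.44 months old. The pooled SD within groups was 0.086, close to the 0.094 over all 24 mice. Split by sex, Grn+/+ hTDP+ mice averaged 0.093 ± 0.051 in males and −0.030 ± 0.10 in females (SD, n = 3 each). Grn+/+ hTDP- mice averaged −0.013 ± 0.044 in males and −0.15 ± 0.062 in females. Grn+/- hTDP+ mice averaged 0.012 ± 0.077 in males and 0.075 ± 0.12 in females, and Grn+/- hTDP- mice 0.042 ± 0.029 in males and −0.029 ± 0.026 in females. Mean values of males thus stood above those of females in 3 of the 4 genotypes and below them in Grn+/- hTDP+ mice. The 3 Grn+/- hTDP+ females lay at −0.033, 0.049 and 0.21, so their mean leaned on the highest, replicate 6.

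**Figure D3:**
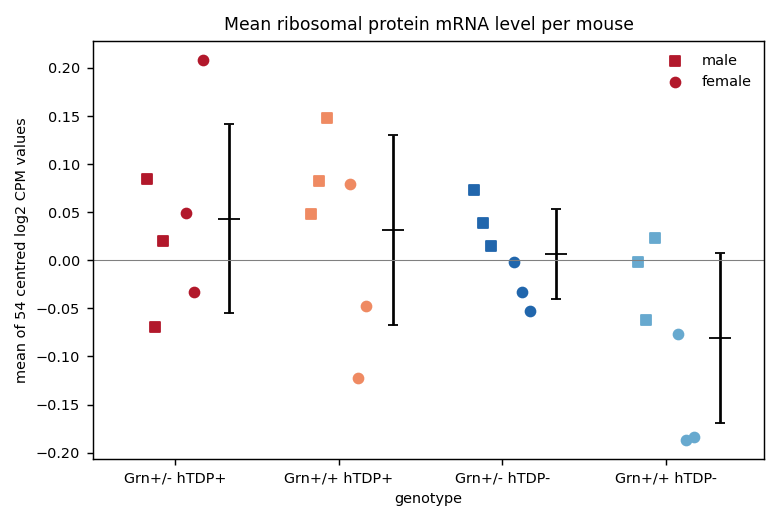
Mean of the 54 centred log2 CPM values in each mouse, by genotype and sex, with each group's mean ± SD (n = 6) in black. Groups overlap, and Grn+/+ hTDP- has the lowest mean, −0.081.

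The first comparison asked whether the transgene altered these mRNAs, with Grn genotypes averaged. Every member had a higher fitted level in hTDP+ mice, by a small amount, and none of the differences passed the test. In edgeR's quasi-likelihood test with Benjamini-Hochberg adjustment over all genes, 0 of 54 members were called at an adjusted p of 0.05, where 0.11% of all genes tested were called. DESeq2 and limma voom also called 0 members. All 54 log2 differences were above 0, against 51.6% of all genes, with a median of 0.073 for members and 0.0031 for all genes. At an unadjusted p under 0.05, 21 members were higher, where 3.62% of all genes were. That count was 8 to 13 without Grn+/- hTDP+ replicate 6, without Grn+/+ hTDP+ replicate 2, 4 or 5, without Grn+/- hTDP- replicate 4, or without Grn+/+ hTDP- replicate 2, 4 or 5. It was 37 without Grn+/- hTDP+ replicate 2 and 35 without Grn+/+ hTDP+ replicate 3. With each labelled age as a block it was 3, with all 54 members still above 0 (median 0.084). Over all genes, that block cut the genes called by edgeR from 20 to 2. Here and below, the share of all genes at an unadjusted p under 0.05 is given for the main fit only, unless stated. Changes of such counts in other fits can therefore not be read as particular to the members.

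Rps21, a small subunit protein needed to finish processing of the small subunit's RNA, had the largest difference. It had 85.5, 117 and 139 CPM (lowest, median and highest) in the 12 hTDP+ mice, against 77.6, 99.3 and 112 CPM in the 12 hTDP- mice. The ranges overlapped broadly. The log2 difference was 0.21 ± 0.071 (SE), and its adjusted p in edgeR was 0.491. Rps28 had a log2 difference of 0.12 ± 0.086 and Rps12 one of 0.11 ± 0.040. Rpl27, of the large subunit, had 90.003, 97.0 and 115 CPM in hTDP+ mice, against 83.7, 92.1 and 99.6 CPM in hTDP- mice, a log2 difference of 0.10 ± 0.035 with an adjusted p of 0.517 in edgeR. Rps14, a component of the small subunit platform, had 184, 206 and 235 CPM in hTDP+ mice, against 177, 190 and 216 CPM in hTDP- mice. The smallest differences were those of Rpl7a (0.024, 95% interval −0.028 to 0.076), Rpl15 (0.036) and Rpl12 (0.040).

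**Figure D4:**
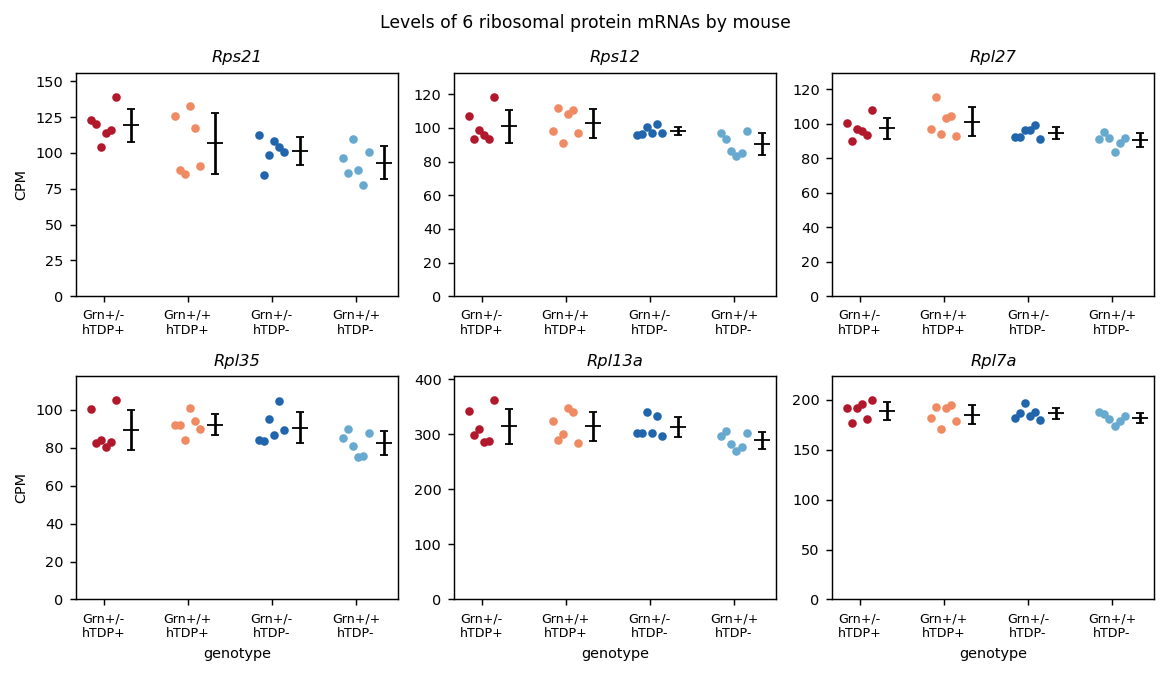
CPM of 6 genes in each mouse by genotype (axis from 0), with each group's mean ± SD (n = 6) in black. Rps21 averages 119 CPM in Grn+/- hTDP+ and 93.1 CPM in Grn+/+ hTDP- mice with overlapping ranges, and Rpl7a is nearly level at 189 and 182 CPM.

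On a Grn+/+ background, the transgene comparison (Grn+/+ hTDP+ against Grn+/+ hTDP-) gave 0 of 54 members called by edgeR, where 0.0329% of all genes were called, and 0 by DESeq2 or limma voom. All 54 differences were above 0 (50.3% of all genes), with a median of 0.11 for members. At an unadjusted p under 0.05, 22 members were higher, where 4.6% of all genes were. That count was 12 to 14 without Grn+/+ hTDP+ replicate 2 or 5 or Grn+/+ hTDP- replicate 4 or 5. It was 34 without Grn+/- hTDP+ replicate 6 and 39 without Grn+/+ hTDP+ replicate 3. No member lay wholly higher in Grn+/+ hTDP+ mice, where 0.197% of all genes did. Rpl41, the smallest ribosomal protein, had 143, 169 and 185 CPM in Grn+/+ hTDP+ mice, against 124, 151 and 163 CPM in Grn+/+ hTDP- mice, a log2 difference of 0.19 ± 0.069. Rps12 had 91.1, 103 and 112 CPM in Grn+/+ hTDP+ mice, against 83.3, 89.9 and 98.2 CPM in Grn+/+ hTDP- mice, with a log2 difference of 0.19 ± 0.057. Rpl27 had 92.8, 100.2 and 115 CPM in Grn+/+ hTDP+ mice, against 83.7, 91.5 and 95.5 CPM in Grn+/+ hTDP- mice, with a log2 difference of 0.16 ± 0.049. In edgeR all 3 had adjusted p-values of 0.591 to 0.608. In each of these 3 genes, 4 of the 6 Grn+/+ hTDP+ mice lay above the highest Grn+/+ hTDP- mouse. The smallest differences were those of Rpl7a (0.027), Rpl12 (0.047) and Rpl6 (0.051).

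On the Grn+/- background (Grn+/- hTDP+ against Grn+/- hTDP-) the differences were smaller. Here 51 of 54 members were above 0 (49.9% of all genes), with a median of 0.039, and edgeR, DESeq2 and limma voom each called 0 members, where edgeR called 0.0219% of all genes. Only Rps21 and Rpl14 had an unadjusted p under 0.05 (1.04% of all genes higher), and the count was 0 without Grn+/- hTDP+ replicate 6 or Grn+/- hTDP- replicate 2 and 1 without Grn+/- hTDP+ replicate 1 or 4, Grn+/+ hTDP+ replicate 5, Grn+/- hTDP- replicate 3, 4 or 6, or Grn+/+ hTDP- replicate 2. Rps21 had 104, 118 and 139 CPM in Grn+/- hTDP+ mice, against 84.9, 102 and 112 CPM in Grn+/- hTDP- mice, a log2 difference of 0.24 ± 0.10. Rpl14 had 139, 159 and 180.0 CPM in Grn+/- hTDP+ mice, against 135, 147 and 155 CPM in Grn+/- hTDP- mice, a log2 difference of 0.12 ± 0.055. The members below 0 were Rpl35 (−0.019), Rps29 (−0.0090) and Rps9 (−0.0069). The direction rested on 1 mouse: without Grn+/- hTDP+ replicate 6 the median was −0.0067 and 23 of 54 members were above 0. No member lay wholly higher in Grn+/- hTDP+ mice, where 0.0768% of all genes did.

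The interaction term, which is the transgene difference in Grn+/- mice minus that in Grn+/+ mice, was below 0 for 51 of 54 members, against 48.9% of all genes, with a median of −0.074. EdgeR called 0 members and 0% of all genes, and DESeq2 and limma voom called 0 members. The most negative was Rpl35, a large subunit protein at the exit of the peptide tunnel, at −0.18 ± 0.089. It had 80.3, 83.6 and 105 CPM in Grn+/- hTDP+ mice and 84.2, 91.9 and 101 CPM in Grn+/+ hTDP+ mice. In mice without the transgene it had 83.7, 88.1 and 105 CPM in Grn+/- and 75.0, 82.9 and 90.02 CPM in Grn+/+. Its unadjusted p was 0.0491 and its adjusted p in edgeR rounded to 1, and it was the only member with an unadjusted p under 0.05 (1.86% of all genes lower). Without Grn+/- hTDP+ replicate 6 that count was 18, and without any other single library it was 0 to 3. Rpl41 (−0.17), Rps29 (−0.16), Rps24 (−0.15) and Rps27a (−0.15) followed, and Rps21 (0.052), Rpl14 (0.017) and Rpl6 (0.0056) were above 0.

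Loss of 1 Grn allele, averaged over transgene status, gave 53 of 54 members above 0 (53.5% of all genes), with a median of 0.048. EdgeR, DESeq2 and limma voom called 0 members, where edgeR called 0.0219% of all genes. At an unadjusted p under 0.05, 6 members were higher, where 2.2% of all genes were, and that count was 1 to 3 without Grn+/- hTDP+ replicate 6, Grn+/+ hTDP+ replicate 3 or 6, Grn+/- hTDP- replicate 3 or 4, or Grn+/+ hTDP- replicate 2 or 4. The same count was 10 to 12 without Grn+/- hTDP+ replicate 2 or Grn+/+ hTDP+ replicate 2 or 5, and 0 with age as a block (median 0.051). With that block edgeR called 1 of all genes in place of 4. The stalk base Rplp0 had 155, 164 and 190 CPM in the 12 Grn+/- mice, against 141, 154 and 171 CPM in the 12 Grn+/+ mice, a log2 difference of 0.080 ± 0.032 with an adjusted p of 0.926 in edgeR. Rplp1 had 302, 331 and 404 CPM in Grn+/- mice, against 285, 312 and 356 CPM in Grn+/+ mice, a log2 difference of 0.095 ± 0.041. Rps15 had 195, 215 and 253 CPM in Grn+/- mice, against 179, 203 and 226 CPM in Grn+/+ mice, a log2 difference of 0.093 ± 0.040. Rps21 had the largest, 0.15 ± 0.071. Ranges overlapped in each of these genes. The lowest were Rpl14 (−0.023), Rps13 (0.00022) and Rpl27 (0.0048).

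Without the transgene (Grn+/- hTDP- against Grn+/+ hTDP-), 53 of 54 members were above 0 (53.9% of all genes), with a median of 0.093. The 3 tools called 0 members, where edgeR called 0.011% of all genes. At an unadjusted p under 0.05, 11 members were higher (1.78% of all genes), and that count was 1 to 7 without Grn+/- hTDP- replicate 1, 3, 4 or 5 or Grn+/+ hTDP- replicate 2, 4 or 5, and 23 without Grn+/- hTDP+ replicate 6. It was 4 with a linear age term and 0 with age as a block (median 0.082). With either age term edgeR called 0 of all genes in place of 2. Rps9 had 129, 136 and 144 CPM in Grn+/- hTDP- mice, against 113, 124 and 135 CPM in Grn+/+ hTDP- mice, a log2 difference of 0.13 ± 0.050. Rpl37a (0.14), Rpl35 (0.14), Rps18 (0.11) and Rps3 (0.11) were near it, and Rpl14 (−0.032), Rpl6 (0.025) and Rpl4 (0.029) were lowest. With the transgene (Grn+/- hTDP+ against Grn+/+ hTDP+), 38 of 54 members were above 0 (51.4% of all genes), with a median of 0.012. The 3 tools called 0 members, where edgeR called 0.00548% of all genes, and 0 members were higher at an unadjusted p under 0.05 (1.33% of all genes). The highest were Rps21 (0.18), Rpl19 (0.074) and Rps15 (0.069), and the lowest Rps24 (−0.062), Rpl27 (−0.055) and Rpl41 (−0.052). Without Grn+/- hTDP+ replicate 6 the median was −0.029 with 10 of 54 above 0, and without Grn+/+ hTDP+ replicate 3 it was −0.016. No member lay wholly higher in Grn+/- mice in either comparison, where 0.11% of all genes were wholly higher in Grn+/- hTDP- mice and 0.0548% in Grn+/- hTDP+ mice.

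Mice with both changes were also set against mice with neither (Grn+/- hTDP+ against Grn+/+ hTDP-). All 54 members were above 0 (54.9% of all genes), with a median of 0.12 for members and 0.014 for all genes. EdgeR called 0 members, where 0.0768% of all genes were called, limma voom called 0 and DESeq2 called 1, Rps21, where DESeq2 called 0.504% of all genes. At an unadjusted p under 0.05, 39 members were higher, where 3.87% of all genes were, and the count was 10 without Grn+/- hTDP+ replicate 6, 23 without Grn+/+ hTDP- replicate 4 and 20 without Grn+/+ hTDP- replicate 5. Rps21 had 104, 118 and 139 CPM in Grn+/- hTDP+ mice, against 77.6, 92.5 and 110 CPM in Grn+/+ hTDP- mice. In all, 5 of the 6 mice with both changes lay above the highest Grn+/+ hTDP- mouse. The log2 difference was 0.36 ± 0.10, with an adjusted p of 0.327 in edgeR and 0.0372 in DESeq2. In TPM, Rps21 averaged 2206 ± 248 in Grn+/- hTDP+ mice and 1753 ± 181 in Grn+/+ hTDP- mice (SD, n = 6 each). Rps2 had 312, 324 and 396 CPM in Grn+/- hTDP+ mice, against 276, 298 and 314 CPM in Grn+/+ hTDP- mice, a log2 difference of 0.175 ± 0.059. Rps14 (0.16 ± 0.049), Rplp1 (0.17 ± 0.058) and Rpl37 (0.17 ± 0.079) were the other genes of large or low-p differences. The lowest were Rpl15 (0.046), Rpl22 (0.058) and Rpl7a (0.059). No member lay wholly higher in Grn+/- hTDP+ mice, where 0.291% of all genes did. This comparison, the transgene comparison in Grn+/+ mice and the Grn comparison without the transgene share the 6 Grn+/+ hTDP- libraries, which have the lowest mean level.

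**Figure D5:**
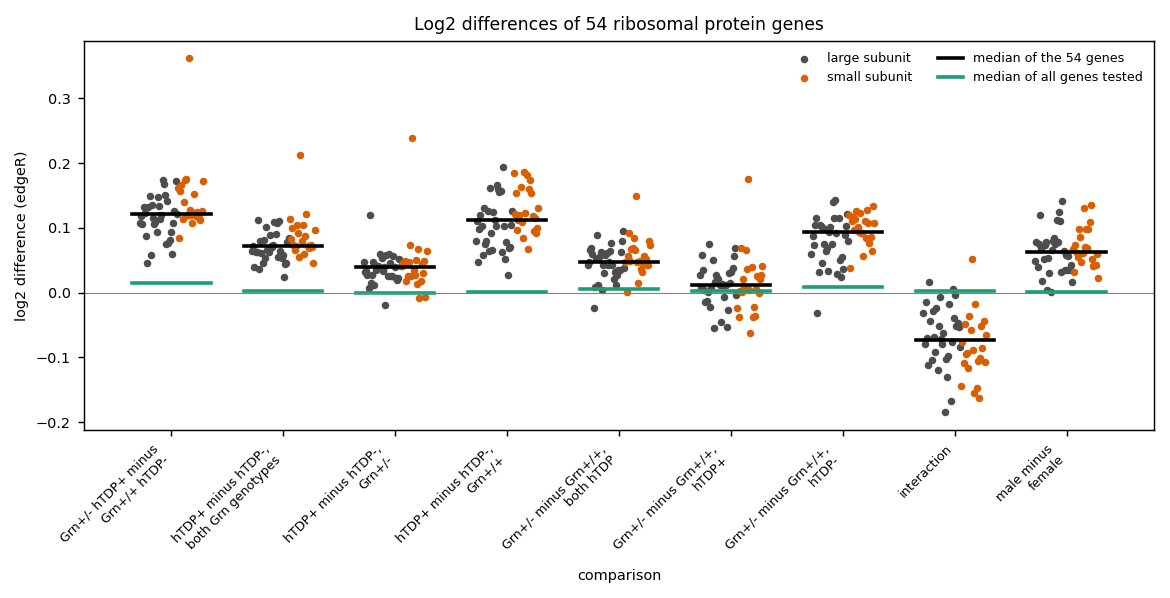
Log2 differences of the 54 genes (points, by subunit) in each of 9 comparisons, with the median of the 54 genes in black and of all genes tested in green. Member medians lie between −0.074 for the interaction and 0.12 for mice with both changes, and Rps21 is the highest point in 6 comparisons.

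By role, the 3 stalk genes had hTDP+ minus hTDP- log2 differences of 0.046 ± 0.032 (Rplp0), 0.078 ± 0.041 (Rplp1) and 0.084 ± 0.035 (Rplp2), and 0.13, 0.17 and 0.12 in mice with both changes. Rpl5 and Rpl11 join the 5S RNA and can hold Mdm2 in check when ribosome assembly fails. Rpl5 had 161, 171 and 187 CPM in Grn+/- hTDP+ mice, 165, 176 and 188 CPM in Grn+/+ hTDP+ mice, 163, 167 and 184 CPM in Grn+/- hTDP- mice and 155, 166 and 172 CPM in Grn+/+ hTDP- mice. Its hTDP+ minus hTDP- difference was 0.064 ± 0.028, and that of Rpl11 was 0.071 ± 0.040. Rps6, the substrate by which S6 kinase activity is often read, had 188, 208 and 221 CPM in Grn+/- hTDP+ mice, 186, 207 and 225 CPM in Grn+/+ hTDP+ mice, 195, 202 and 204 CPM in Grn+/- hTDP- mice and 179, 189 and 200.2 CPM in Grn+/+ hTDP- mice, with a difference of 0.073 ± 0.030. For Rps27a, made as a fusion with ubiquitin, the difference was 0.087 ± 0.038. Rpsa, which is also known as a laminin receptor, had 0.097 ± 0.048. Rps19, mutated in Diamond-Blackfan anaemia in people, had 0.10 ± 0.049, and Rps4x, the X-linked small subunit gene, had 0.070 ± 0.035. Rpl3, at the peptidyl transferase centre, had 0.063 ± 0.036 and Rpl22 had 0.046 ± 0.025. Large subunit genes had a median of 0.065 and small subunit genes one of 0.077, and neither was tested against the other.

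Sex gave differences of similar size to those of the transgene. All 54 members were above 0 in males against females (50.7% of all genes), with a median of 0.063. EdgeR, DESeq2 and limma voom called 0 members, where edgeR called 0.0713% of all genes, and 12 members were higher at an unadjusted p under 0.05 (3.07% of all genes). Rpl13a, which also has a role outside the ribosome in silencing inflammatory mRNAs, had 297, 317 and 348 CPM in the 12 males, against 269, 289 and 362 CPM in the 12 females. The log2 difference was 0.12 ± 0.036, with an adjusted p of 0.608 in edgeR. The female maximum was Grn+/- hTDP+ replicate 6, and without that mouse edgeR called Rpl13a (log2 difference 0.15, adjusted p 0.00953), where it called 0.0816% of all genes, and 34 members were higher at an unadjusted p under 0.05 (3.68% of all genes). That count was 25 without Grn+/- hTDP+ replicate 2 and 20 without Grn+/+ hTDP+ replicate 2. Rpl22 had 62.6, 66.6 and 73.3 CPM in males, against 58.3, 63.8 and 68.3 CPM in females, a log2 difference of 0.077 ± 0.025. Rpl41 had 141, 164 and 185 CPM in males, against 124, 150.1 and 183 CPM in females, a log2 difference of 0.14 ± 0.049. Rps29 (0.14) and Rps21 (0.13) were next, and Rpl28 (0.00037), Rpl23 (0.0044) and Rplp2 (0.016) lowest.

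Differences varied with mRNA length in some comparisons and not in others. For the transgene in Grn+/+ mice, the 18 members of shortest effective length (75.2 to 293 bases) had a median of 0.15, the middle 18 (317 to 573 bases) 0.11 and the 18 longest (584 to 1263 bases) 0.090. From shortest to longest, the medians were 0.081, 0.065 and 0.042 in males against females, 0.11, 0.093 and 0.075 for Grn without the transgene, 0.15, 0.12 and 0.11 in mice with both changes and −0.096, −0.075 and −0.045 for the interaction. They were 0.087, 0.065 and 0.063 for the transgene averaged and 0.044, 0.034 and 0.034 for the transgene in Grn+/- mice. For Grn averaged they were 0.048, 0.051 and 0.045, and for Grn with the transgene they ran the other way, 0.0067, 0.013 and 0.020. Fragment length, read from the files as transcript length minus effective length, had group medians of 308.0 bases in Grn+/- hTDP+ mice, 308.2 in Grn+/+ hTDP+ mice, 307.7 in Grn+/- hTDP- mice and 308.5 in Grn+/+ hTDP- mice. The 2 libraries with the lowest ribosomal protein levels had fragments of 317.5 and 317.6 bases, the longest in their group and, of all 24 libraries, shorter only than those of Grn+/- hTDP- replicate 5 (321 bases). The mean centred log2 level of that replicate 5 was 0.015. The library with the highest level, Grn+/- hTDP+ replicate 6, had fragments of 314.3 bases. With fragment length as a covariate, the hTDP+ minus hTDP- median was 0.069 in place of 0.073, and the median in mice with both changes stayed at 0.12. The median in males against females was 0.050 in place of 0.063, with 52 of 54 members above 0. For Grn with the transgene the median was 0.025 in place of 0.012. The shortest 18 members had 0.12 in place of 0.15 for the transgene in Grn+/+ mice.

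Lists of related genes were read beside the members in edgeR. For hTDP+ minus hTDP-, 51.6% of all genes were above 0. Of 26 other cytosolic ribosomal protein genes, 26 were above 0 for hTDP+ minus hTDP-, with a median of 0.067, from Rps15a (0.0087) to Rps27 (0.14). Of 78 mitochondrial ribosomal protein genes 69 were above 0 (median 0.034), and of 48 nuclear genes of oxidative phosphorylation 45 (median 0.045). Translation factors and other mRNAs with TOP tracts had 19 of 24 above 0 (median 0.037), ribosome biogenesis factors 32 of 45 (median 0.020), and p53 targets with Mdm2 9 of 12 (median 0.037). Genes of mTORC1 and its TOP control had 4 of 17 above 0 (median −0.018), from Deptor, an inhibitor of mTOR (−0.22), to Rps6kb2, an S6 kinase (0.12). Mitochondrially encoded genes had 12 of 13 above 0 (median 0.087), and ribosomal protein paralogs 5 of 6 (median 0.082). None of these genes was called in that comparison, where 0.11% of all genes were. The only one called in males against females was the X-linked factor Eif2s3x (−0.61), where 0.0713% of all genes were called.

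Markers of glia, vessels and blood had differences of their own in some of the same comparisons. None of them was called, where the shares of all genes called were those given above. For the transgene in Grn+/+ mice, 9 of 9 oligodendrocyte markers were above 0 (50.3% of all genes) with a median of 0.71. Their summed level was 1922 to 4199 CPM in Grn+/+ hTDP+ mice, against 1198 to 2926 CPM in Grn+/+ hTDP- mice. In Grn+/- mice 0 of 9 were above 0 for the transgene (median −0.17), where 49.9% of all genes were. The sums there were 1201 to 3094 CPM in Grn+/- hTDP+ mice, against 1291 to 5508 CPM in Grn+/- hTDP- mice. Their medians stood the other way, at 2198 CPM in Grn+/- hTDP+ mice and 1761 CPM in Grn+/- hTDP- mice. In males against females 0 of 9 oligodendrocyte markers were above 0 (median −0.29), where 50.7% of all genes were. Blood markers had 5 of 5 above 0 for Grn+/- minus Grn+/+ (median 0.97), where 53.5% of all genes were. Their sums were 13.4 to 77.1 CPM (median 62.8) in Grn+/- hTDP+ mice and 17.7 to 54.4 (median 21.1) in Grn+/+ hTDP+ mice. They were 10.8 to 150.3 (median 17.9) in Grn+/- hTDP- mice and 11.1 to 30.5 (median 20.2) in Grn+/+ hTDP- mice. Without the transgene the median sum was thus lower in Grn+/- mice. Mural and meningeal markers had 8 of 8 above 0 for hTDP+ minus hTDP- (median 0.18), where 51.6% of all genes were. No oligodendrocyte or blood marker was at 0 in any library, and their part in the ribosomal protein values was not tested. The excitatory neuron markers, which are not specific to cortex, summed to 6391 to 7631 CPM over all libraries.

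Most reads of the 54 genes fell on protein coding transcripts. Their share was 90.3% ± 0.22 in Grn+/- hTDP+ mice, 90.2% ± 0.19 in Grn+/+ hTDP+ mice, 90.3% ± 0.19 in Grn+/- hTDP- mice and 90.3% ± 0.26 in Grn+/+ hTDP- mice (SD, n = 6 each). Retained intron transcripts took 3.79%, 3.79%, 3.81% and 3.76% in the same order. The noncoding share differed widely between genes, at 59.1% ± 2.6 for Rpl37, 58.2% ± 2.5 for Rps23, 50.5% ± 1.7 for Rpl13a and 35.4% ± 2.4 for Rpl11 (SD, n = 24), and Rps21 was 98.2% a single coding transcript. In the test of transcript usage, 36 members had at least 2 transcripts to compare. For the transgene edgeR called 0 of them, where 0.165% of genes were called, with 0 at an unadjusted p under 0.05 (3.71% of genes), and limma called 0 (0.444% of genes) with 4 at an unadjusted p under 0.05, where 15.7% of genes were. For Grn edgeR called 0 (0.0381% of genes), with 0 at an unadjusted p under 0.05 (1.46% of genes), and limma called 0 (0.0254% of genes) with 4 (9.15% of genes). Reads of ribosomal protein genes can be shared with processed pseudogenes. By sequence, 638 pseudogenes matched the 54 members, every member had at least 1, and they held 0.671% to 0.795% of the family's reads, with the largest share at Rps23 (4.12%).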

How the data were processed

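Poly(A) RNA of frontal cortex was sequenced from 24 mice, 6 per genotype. Per the file headers, the authors' files are Salmon output per transcript, with deposited expected counts, TPM values and effective lengths. STAR, SAMtools, Salmon and DESeq2 are named in the submitters' processing notes, and neither versions nor a genome build could be taken from the labels or headers. The protocols describe directional and non-directional libraries, so overlapping genes may share reads. Transcripts were matched by identifier to GENCODE M21 (GRCm38): 138032 of 149444 (92.4%), with 1.17% to 1.66% of reads unmatched. The expected counts of each gene's transcripts were added up, then rounded. EdgeR 4.0.16 (R 4.3.3; TMM, filterByExpr, glmQLFit, group and sex) was fitted on all 24 libraries and 18239 genes, and called genes have a Benjamini-Hochberg adjusted p under 0.05. Each SE is the size of the edgeR log2 difference divided by the square root of its F statistic, and the 95% intervals rest on it. DESeq2 1.42.0 and limma 3.58.1 were alternatives. Transcript usage used edgeR's diffSpliceDGE on transcripts with at least 5% of their gene. CPM uses TMM-scaled library sizes. Pseudogenes were matched with BLAST 2.17.0 at 90% identity over 80% of their length. The tests were tried on simulated data. Separate mice are replicates.

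The members and all gene lists were chosen with earlier results of these data known. Named members are those with the 3 highest, 3 lowest and 3 smallest-p values in each comparison, the 5 highest and 5 lowest in TPM, and members of defined role. Alternatives covered scaling, test, filter, counts, sex, age, pseudogenes and each library left out. Adding fragment length, age as a block and sequence-matched pseudogenes was chosen after seeing the data.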

Additional observations from a re-analysis of the deposited data

Results flagged for a closer look

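Of 168 sets of 6 mice examined, 9 had 1 mouse far from the others (a gap to its neighbour above 0.625 of the range), and chance flags about 5% of sets. In Grn+/- hTDP+ mice, replicate 6 stood alone at 404 CPM for Rplp1, 235 CPM for Rps14 and 396 CPM for Rps2, and at −0.040 for the mean log2 value of large minus small subunit genes. Also in that group, replicate 1 stood alone with 4.15% of member reads on retained intron transcripts. In Grn+/+ hTDP+ mice, replicate 6 stood alone with 4.01% on retained intron transcripts and replicate 2 with 1.28% on transcripts annotated for nonsense-mediated decay. In Grn+/- hTDP- mice, replicate 6 stood alone at 224 CPM for Rpl6 and replicate 3 at 227 CPM for Rps3.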

How the results depend on the processing

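No paired analysis was possible because the labels give the numbers in the sample titles as library names, and no number occurs in more than 1 group. With age as a block, which leaves 2 Grn+/- hTDP- mice (replicates 2 and 3) of an age shared with another group, no member was called. Of 2476 values of named members under alternatives, 2386 kept direction and side of the threshold, 2 newly passed it and 88 changed sign, 68 of them with 1 library left out. The medians of members kept their sign under all 12 or, for sex, 11 other settings that left out no library, for example from 0.066 to 0.084 for hTDP+ minus hTDP- and from 0.11 to 0.14 in mice with both changes. DESeq2 called 1 member in mice with both changes. With 1 library left out, the hTDP median in Grn+/- mice ran from −0.0067 to 0.062 and the Grn median in hTDP+ mice from −0.029 to 0.042, and the members called between sexes ran from 0 to 1.

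For hTDP in Grn+/- mice, Rpl35 was 0.0083 with linear age and 0.015 with age as a block, Rps29 0.22 with age as a block, and Rps9 0.000576 with upper-quartile scaling and 0.0016 with age as a block. For Grn averaged, Rps13 was −0.00100 with DESeq2 size factors, −0.00119 with DESeq2, −0.000385 without a filter, −0.00113 with age as a block and −0.000208 with sequence-matched pseudogenes. The interaction was −0.0070 with linear age and −0.00052 with age as a block for Rpl6, and 0.014 with age as a block for Rps29. Between sexes, Rpl28 was −0.0021 with DESeq2 size factors, −0.0023 with DESeq2, −0.0019 with limma voom, −0.019 with fragment length added and −0.000275 with sequence-matched pseudogenes, and Rpl23 was −0.0096 with length-scaled counts and −0.018 with fragment length added. Leaving out 1 library gave, for hTDP in Grn+/- mice, −0.088 to 0.015 for Rpl35, −0.088 to 0.060 for Rps29 and −0.057 to 0.028 for Rps9. It gave, for Grn averaged, −0.015 to 0.026 for Rps13 and −0.013 to 0.028 for Rpl27, and for the interaction, −0.017 to 0.11 for Rps21, −0.033 to 0.057 for Rpl14 and −0.016 to 0.027 for Rpl6. Between sexes it gave −0.020 to 0.017 for Rpl28, −0.014 to 0.021 for Rpl23, −0.00064 to 0.043 for Rplp2 and 0.11 to 0.15 for Rpl13a. The cause was not tested.

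Members with an unadjusted p under 0.05 numbered 12 in place of 21 for hTDP averaged, 14 in place of 22 in Grn+/+ mice and 24 in place of 39 in mice with both changes, with length-scaled TPM counts. For Grn averaged the count was 11 in place of 6 with fragment length added. For Grn without the transgene it was 3 in place of 11 with length-scaled TPM counts, 4 with linear age and 6 without a sex term. Fragment length added raised it to 16 for Grn without the transgene and to 45 in place of 39 in mice with both changes. With age as a block the counts were 3 in place of 21 for hTDP averaged, 1 in place of 2 for hTDP in Grn+/- mice, 0 in place of 6 for Grn averaged, 0 in place of 11 for Grn without the transgene and 0 in place of 1 for the interaction. The same block changed other counts little. It left 22, as in the main fit, for hTDP in Grn+/+ mice. It gave 37 in place of 39 in mice with both changes and 13 in place of 12 in males against females. Over all genes, DESeq2 called 61 in place of 20 for hTDP averaged and 92 in place of 14 in mice with both changes. Age as a block left 2 in place of 20 for hTDP averaged, 0 in place of 4 for hTDP in Grn+/- mice, 1 in place of 4 for Grn averaged and 0 in place of 2 for Grn without the transgene. Length-scaled TPM counts left 15 in place of 20 for hTDP averaged, 4 in place of 6 in Grn+/+ mice and 7 in place of 14 in mice with both changes. The share of the 54 genes was 3.95% of TPM in place of 0.870% of reads in Grn+/- hTDP+ mice, 3.93% in place of 0.861% in Grn+/+ hTDP+ mice, 3.87% in place of 0.841% in Grn+/- hTDP- mice and 3.68% in place of 0.790% in Grn+/+ hTDP- mice. At 6 mice a group, the mean of the 54 genes had a pooled within-group SD of 0.086 log2. Member medians in the 9 comparisons ran from −0.074 to 0.12, and SDs of single genes over the 24 mice from 0.059 to 0.27.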
